A study of Homo sapiens with 8 samples.

Results

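Mitochondrial protein import and folding was followed here through 40 genes of a genome-wide CRISPR interference (CRISPRi) growth screen. They are the 24 genes whose sgRNA names start with TIMM or TOMM, the symbols of translocase subunits of the inner and outer membrane, and 16 genes named one by one: PAM16, DNAJC19, GRPEL1, HSPA9, HSPD1, HSPE1, PMPCA, PMPCB, SAMM50, MTX1, MTX2, CHCHD4, GFER, LONP1, CLPP and CLPX. All 40 passed the filter on low counts, with 204 sgRNAs in all (5 for each of 36 genes and 6 for each of 4), out of 17547 genes and 87897 sgRNAs tested. The rule used names and mean counts, not changes in abundance, but the genes were chosen with earlier results of these data known.

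The screen was done in K562, a human chronic myeloid leukaemia line, carrying dCas9-KRAB, a nuclease-dead Cas9 fused to a repressor that silences the promoter its sgRNA points to. Cells expressing mutant uL16 were sampled at day 9 and day 0, and cells expressing wild-type uL16 at day 9 and day 0, with 2 replicate libraries in each of the 4 groups. All 8 libraries were made from cells carrying dCas9-KRAB, infected with the sgRNA library and selected in puromycin, so the wild-type line shares everything but the uL16 allele as far as the labels say. uL16, also called RPL10, is a protein of the large ribosomal subunit. The sample titles call the mutant line delta and the wild-type line wt. Beyond that, the labels name neither the mutation nor the number of clones behind each line. Nothing says that the replicates came from separate cultures, so p-values measure only the spread between these libraries. Each library counts sgRNA sequences amplified from genomic DNA, so a fall from day 0 to day 9 means that cells carrying that sgRNA lost ground to the other cells; how far each target gene was silenced was not measured.

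Most mitochondrial proteins are made in the cytosol and enter through the TOM complex of the outer membrane. From there, proteins with a cleavable presequence pass the TIM23 complex and are pulled into the matrix by the PAM motor, whose core is the Hsp70 HSPA9. Carrier proteins travel with small TIM chaperones to TIM22, barrel-shaped outer membrane proteins are inserted by the SAM complex, and cysteine-rich proteins of the intermembrane space are trapped there by oxidation. In the matrix a peptidase removes the presequence, chaperonins fold the imported chain, and proteases such as LONP1 and CLPP remove damaged proteins.

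In cells expressing mutant uL16, sgRNAs against 19 of the 40 genes fell by day 9 and none rose. In cells expressing wild-type uL16, 18 fell and none rose. A gene was called when edgeR's quasi-likelihood test on its summed sgRNA counts gave an adjusted p under 0.05, with Benjamini-Hochberg adjustment over all 17547 genes. Among all genes tested, 9.07% were called lower and 0.798% higher in the mutant line, and 9.28% lower and 0.986% higher in the wild-type line. The same 18 genes fell in both lines, against 7.49% of all genes; TIMM50 was called in the mutant line alone by this test, and 21 genes were called in neither. The median log2 change over the 40 genes was -0.18 in the mutant line and -0.28 in the wild-type line, against 0.01 over all genes in each. The order of these medians depends on the setting. With limma on mean log2 CPM of sgRNAs the median was -0.464 in the mutant and -0.374 in the wild-type line. Without each gene's most abundant sgRNA it was -0.350 in the mutant and -0.345 in the wild-type line. Without sgRNAs shared with or near another gene it was -0.399 in the mutant and -0.316 in the wild-type line. That last setting left out members with under 3 remaining sgRNAs, so its medians cover fewer than the 40 genes. Both day 9 libraries lay below both day 0 libraries for 25 of the 40 genes in the mutant line (24.5% of all genes) and for 27 in the wild-type line (24.2% of all genes). A log2 change under -1 was measured for 6 of the genes in the mutant line (3.4% of all genes) and for 9 in the wild-type line (3.34% of all genes).

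The 204 sgRNAs together made up 0.146% and 0.148% of the counts of the mutant day 9 libraries, against 0.184% and 0.187% of the mutant day 0 libraries. In the wild-type line they made up 0.150% and 0.142% at day 9, against 0.188% and 0.186% at day 0. The groups of the 2 days did not overlap in either line. Library totals ran from 39233340 to 143585751 counts, and the median log2 change of the non-targeting control sgRNAs was 0.02 in both lines (SD 0.30 in the mutant and 0.32 in the wild-type line). Outside the genes followed here, sgRNAs against RPL10 changed by -1.26 log2 in the mutant line and by -0.09 in the wild-type line. Those against ZNF574 changed by -2.39 in the mutant line and by -0.36 in the wild-type line. Both differences between the lines passed the test. No expected direction is given here for either gene, and ZNF574 had the lowest difference of all genes tested. These values therefore cannot check the labels.

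**Figure D1:**
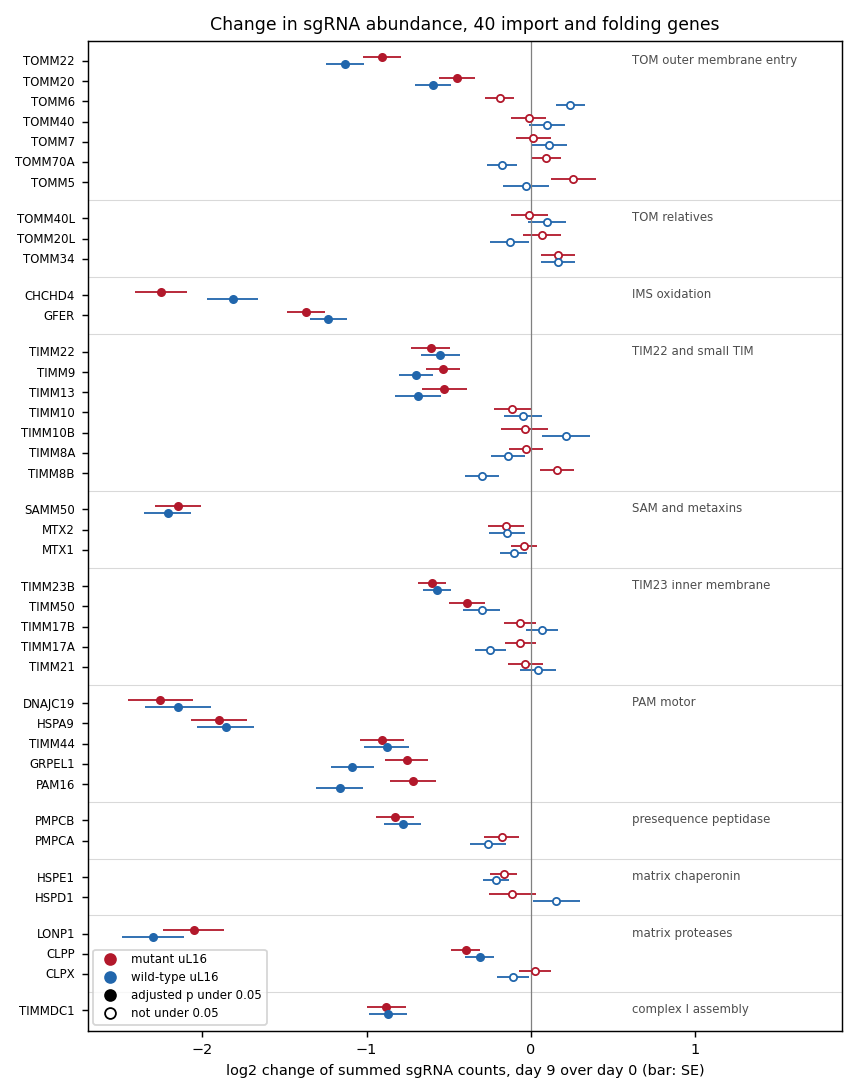
Log2 change of the summed sgRNA counts of each of the 40 genes, day 9 over day 0, with its SE, in the line expressing mutant uL16 (red, upper of each pair) and the line expressing wild-type uL16 (blue, lower), grouped by role. Filled points have an adjusted p under 0.05; all 5 genes of the PAM motor are filled in both lines, while most TOM subunits sit near 0.

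CRISPRi acts at promoters, so the windows around the annotated starts are part of what the sgRNAs address. In the RefSeq table of GRCh38.p14, 36 of the 40 genes had at least 1 promoter window (250 bases before to 50 bases after the start), 41 windows in all. The motif of NRF1, a transcription factor known for driving nuclear genes of mitochondrial proteins, was searched as GCGCATGCG on both strands. It was in 4 of the 41 windows, those of CHCHD4, LONP1, TIMM9 and TOMM7, and in 1.92% of all windows in the table. With the middle base free (GCGCANGCG, which includes every match of the exact form), it was in 13 of the 41 windows and in 7.52% of all windows. Of the 36 genes, 17 were called lower in the mutant line, as were 7 of the 13 with the freer form. Motifs of 2 other kinds of transcription factor were searched too. The ETS motif CCGGAAGTG was in 4 of the 41 windows (9.76%, against 2.36% of all windows). The YY1 motif AAGATGGCG was in 3 (7.32%, against 1.75%). These counts describe letters, not binding. The 4 windows with the exact motif are shown because they belong to 3 genes whose sgRNAs fell and to 1, TOMM7, whose sgRNAs were not called; they lie on the minus strand at chr3:14124821-14125120, chr19:5720403-5720702, chr14:58427482-58427781 and chr7:22822800-22823099, and capitals mark the motif or, where matches on both strands overlap, their union.
CHCHD4: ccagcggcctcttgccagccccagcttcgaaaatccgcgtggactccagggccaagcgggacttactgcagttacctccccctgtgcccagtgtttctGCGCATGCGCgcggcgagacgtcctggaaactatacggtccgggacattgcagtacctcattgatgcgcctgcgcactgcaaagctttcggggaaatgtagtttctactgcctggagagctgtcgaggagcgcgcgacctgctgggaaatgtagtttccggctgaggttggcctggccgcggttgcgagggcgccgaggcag
LONP1: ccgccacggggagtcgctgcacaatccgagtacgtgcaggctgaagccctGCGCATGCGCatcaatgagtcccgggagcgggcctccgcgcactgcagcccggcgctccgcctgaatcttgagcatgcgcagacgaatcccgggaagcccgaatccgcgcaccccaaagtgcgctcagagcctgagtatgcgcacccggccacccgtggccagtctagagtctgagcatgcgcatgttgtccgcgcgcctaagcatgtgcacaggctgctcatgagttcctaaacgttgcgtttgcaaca
TIMM9: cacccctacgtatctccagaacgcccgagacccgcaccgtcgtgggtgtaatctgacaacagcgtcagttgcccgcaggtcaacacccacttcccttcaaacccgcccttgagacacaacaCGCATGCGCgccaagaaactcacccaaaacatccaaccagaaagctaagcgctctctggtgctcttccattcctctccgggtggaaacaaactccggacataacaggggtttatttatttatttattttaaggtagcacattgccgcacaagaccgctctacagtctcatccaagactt
TOMM7: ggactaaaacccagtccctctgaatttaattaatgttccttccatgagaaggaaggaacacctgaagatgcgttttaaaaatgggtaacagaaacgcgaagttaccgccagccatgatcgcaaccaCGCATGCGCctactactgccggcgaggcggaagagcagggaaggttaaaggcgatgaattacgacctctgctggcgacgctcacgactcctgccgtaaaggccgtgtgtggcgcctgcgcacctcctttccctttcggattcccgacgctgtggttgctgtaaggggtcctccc

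At the outer membrane, 2 of the 7 TOM subunits fell in both lines, the receptors TOMM22 and TOMM20. TOMM22, the central receptor that also holds the complex together, had 30.7 and 32.4 CPM (counts scaled to library size by TMM and summed over its sgRNAs) in mutant day 9 libraries, against 59.8 and 58.6 CPM in mutant day 0 libraries. It had 28.7 and 26.0 CPM in wild-type day 9 libraries, against 56.1 and 63.7 CPM in wild-type day 0 libraries. The log2 change was -0.91 (SE 0.12, adjusted p = 1.67e-07) in the mutant line and -1.13 (SE 0.12, adjusted p = 2.14e-09) in the wild-type line, and the days did not overlap. TOMM20, the receptor for presequences, stood at 56.4 and 44.9 CPM in the mutant line at day 9, against 67.6 and 70.1 CPM at day 0. For wild-type cells the values were 45.3 and 42.4 CPM at day 9, against 65.7 and 66.5 CPM at day 0. Its change was -0.45 (SE 0.11, adjusted p = 0.00298) in the mutant line and -0.59 (SE 0.11, adjusted p = 8.95e-05) in the wild-type line. The mutant call on TOMM20 was lost without replicate 2 of mutant day 9 (-0.28, adjusted p = 0.156) or of mutant day 0 (adjusted p = 0.0616).

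TOMM40, which forms the channel of the TOM complex, was not called. It had 53.9 and 51.7 CPM in mutant day 9 libraries, against 58.6 and 48.0 CPM in mutant day 0 libraries, and 53.2 and 56.1 CPM in wild-type day 9 libraries, against 51.1 and 50.9 CPM in wild-type day 0 libraries. The log2 change was -0.01 in the mutant line and 0.10 in the wild-type line (SE 0.11 each), so the days overlapped in the mutant line, and the wild-type change was smaller than its SE. The small subunits TOMM5, TOMM6 and TOMM7 and the carrier receptor TOMM70A, now named TOMM70, were also not called in either line. The paralogs TOMM20L and TOMM40L and the cytosolic cochaperone TOMM34 were not called either: TOMM34 had 63.8 and 60.4 CPM in mutant day 9 libraries, against 51.8 and 58.6 CPM in mutant day 0 libraries, and 67.5 and 61.4 CPM in wild-type day 9 libraries, against 60.6 and 54.1 CPM in wild-type day 0 libraries. For TOMM20L the values were 42.2 and 44.9 CPM in mutant day 9 libraries, against 39.8 and 43.3 CPM at day 0, and 38.0 and 39.4 CPM in wild-type day 9 libraries, against 42.5 and 42.1 CPM at day 0.

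**Figure D2:**
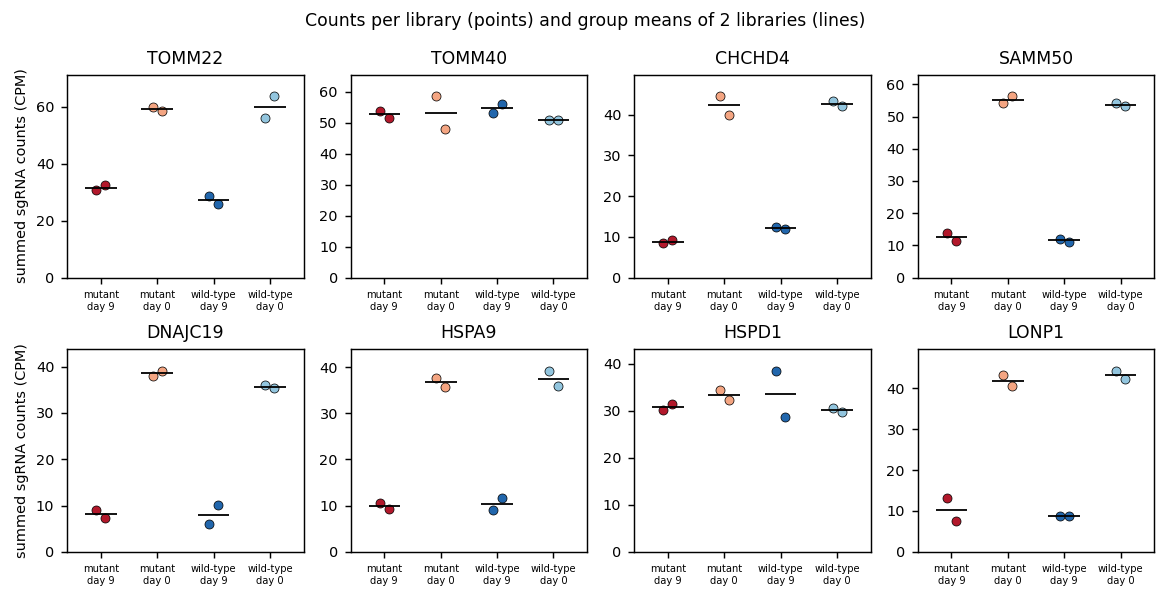
Summed sgRNA counts in CPM in each library (points) with the mean of the 2 libraries of a group (lines) for 8 of the genes, 1 panel each; groups run mutant day 9, mutant day 0, wild-type day 9, wild-type day 0. CHCHD4, SAMM50, DNAJC19, HSPA9 and LONP1 sit between 5.94 and 13.8 CPM at day 9 and above 35 CPM at day 0, while TOMM40 separates by day in the wild-type line alone, with day 9 higher, and HSPD1 in the mutant line alone, with day 9 lower.

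Both genes of oxidative trapping in the intermembrane space fell in both lines. CHCHD4, the oxidoreductase that receives cysteine-rich proteins and is also called MIA40, had 8.49 and 9.16 CPM in mutant day 9 libraries, against 44.5 and 40.05 CPM in mutant day 0 libraries. It had 12.3 and 12.0 CPM in wild-type day 9 libraries, against 43.3 and 42.2 CPM in wild-type day 0 libraries. At day 9 its sgRNAs were thus at 20.9% of their day 0 level in the mutant line (log2 -2.25, SE 0.16, adjusted p = 2.27e-13) and at 28.4% in the wild-type line (log2 -1.82, SE 0.16, adjusted p = 2.79e-11). All 5 CHCHD4 sgRNAs lay within 1 kb of sgRNAs named for TMEM43, whose own summed change of -0.19 in the mutant and 0.02 in the wild-type line was not called. GFER, the sulfhydryl oxidase that reoxidises CHCHD4, had 25.3 and 25.3 CPM in mutant day 9 libraries, against 65.2 and 65.7 CPM in mutant day 0 libraries. In the wild-type line GFER had 28.2 and 26.0 CPM at day 9, against 67.0 and 60.3 CPM at day 0. The change of GFER was -1.37 (SE 0.11, adjusted p = 1.53e-11) in the mutant line and -1.23 (SE 0.12, adjusted p = 2.04e-10) in the wild-type line.

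Of the 7 genes of the carrier route, TIMM22, TIMM9 and TIMM13 fell in both lines. TIMM22, the inner membrane channel for carriers, had 41.5 and 42.2 CPM in mutant day 9 libraries, against 67.5 and 60.4 CPM in mutant day 0 libraries, and 41.3 and 41.2 CPM in wild-type day 9 libraries, against 69.8 and 50.9 CPM in wild-type day 0 libraries. Its change was -0.61 (SE 0.12, adjusted p = 0.000235) in the mutant line and -0.55 (SE 0.12, adjusted p = 0.00103) in the wild-type line; the wild-type call was lost without replicate 1 of wild-type day 0 (-0.30, adjusted p = 0.262). TIMM9, a small TIM chaperone that guards carriers in the intermembrane space, had 48.5 and 51.2 CPM in mutant day 9 libraries, against 73.2 and 71.2 CPM in mutant day 0 libraries. It had 43.4 and 37.8 CPM in wild-type day 9 libraries, against 67.2 and 64.6 CPM in wild-type day 0 libraries. The days did not overlap, with a change of -0.53 (SE 0.10, adjusted p = 0.000185) in the mutant line and -0.70 (SE 0.10, adjusted p = 2.97e-06) in the wild-type line.

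TIMM13, a small TIM of another pair, changed by -0.53 in the mutant line (SE 0.14, adjusted p = 0.00714) and by -0.68 in the wild-type line (SE 0.14, adjusted p = 0.000391). Its mutant call was lost without replicate 1 of mutant day 9 (adjusted p = 0.0799) or replicate 2 of mutant day 0 (adjusted p = 0.156). TIMM10, the partner of TIMM9 in the same chaperone ring, was not called, at -0.11 in the mutant and -0.05 in the wild-type line (SE 0.11 each), and neither were TIMM10B, TIMM8A and TIMM8B. TIMM8B was called lower in the wild-type line when scaled to control sgRNAs (adjusted p = 0.0329), by DESeq2 (adjusted p = 0.0161) and without replicate 1 of wild-type day 9 (adjusted p = 0.0317).

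SAMM50, the channel-forming core of the SAM complex, had the smallest p of the 40 genes in each line. It stood at 13.8 and 11.3 CPM in mutant day 9 libraries, against 54.2 and 56.3 CPM in mutant day 0 libraries. In wild-type day 9 libraries it stood at 12.1 and 11.1 CPM, against 54.1 and 53.3 CPM in wild-type day 0 libraries. The change was -2.15 (SE 0.14, adjusted p = 4.72e-14) in the mutant line and -2.21 (SE 0.14, adjusted p = 4.79e-14) in the wild-type line, with every day 9 library far below every day 0 library. Its partners at the cytosolic face, the metaxins, were not called: MTX2 had 50.2 and 54.2 CPM in mutant day 9 libraries, against 54.7 and 61.4 CPM at day 0, and 60.1 and 50.6 CPM in wild-type day 9 libraries, against 56.6 and 65.9 CPM at day 0. MTX1 changed by -0.04 in the mutant line and by -0.10 in the wild-type line (SE 0.08 each). Its least abundant sgRNA changed by -4.15 in the mutant and -4.69 in the wild-type line. Its other sgRNAs ran from -0.33 to 0.11 in the mutant and from -0.68 to 0.40 in the wild-type line. When every MTX1 sgRNA was given equal weight (limma on mean log2 CPM), it was called lower in both lines, at -0.71 in the mutant (adjusted p = 0.00162) and -0.83 in the wild-type line (adjusted p = 0.000478), and without its most abundant sgRNA it was called in the wild-type line (-0.33, adjusted p = 0.0208).

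Among the 5 genes listed for the TIM23 complex, TIMM23B fell in both lines. It had 57.6 and 64.8 CPM in mutant day 9 libraries, against 92.4 and 93.7 CPM in mutant day 0 libraries, and 65.4 and 67.0 CPM in wild-type day 9 libraries, against 98.2 and 98.4 CPM in wild-type day 0 libraries. The change was -0.60 (SE 0.09, adjusted p = 1.59e-06) in the mutant line and -0.57 (SE 0.09, adjusted p = 4.84e-06) in the wild-type line. TIMM23B is a near-identical copy of TIMM23, the channel of the complex, and all 6 of its sgRNAs had counts identical in all 8 libraries to 6 of the 7 sgRNAs named for TIMM23. The counts listed under TIMM23B therefore cannot be told apart from those of TIMM23. TIMM23 itself falls outside the rule, because its sgRNAs are in a set named by a transcript rather than in a P1 or P1P2 set.

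TIMM50, the presequence receptor of the TIM23 complex, had 43.9 and 41.9 CPM in mutant day 9 libraries, against 51.8 and 60.3 CPM in mutant day 0 libraries. It had 44.5 and 41.3 CPM in wild-type day 9 libraries, against 52.7 and 52.8 CPM in wild-type day 0 libraries. The days did not overlap in either line, but only the mutant change of -0.39 passed the test (SE 0.11, adjusted p = 0.0152), against -0.30 in the wild-type line (SE 0.11, adjusted p = 0.0899). The difference between the lines was -0.09 (SE 0.16, adjusted p = 0.979), and the mutant call was lost without replicate 2 of mutant day 9 (adjusted p = 0.109) or of mutant day 0 (adjusted p = 0.465). The wild-type change of TIMM50 was called when scaled to control sgRNAs (-0.34, adjusted p = 0.0442) and by DESeq2 (-0.30, adjusted p = 0.0214), so its call in the mutant line alone depends on the setting. The channel partners TIMM17A and TIMM17B, which are paralogs, and the accessory subunit TIMM21 were not called in either line, with changes between -0.07 and -0.03 in the mutant line and between -0.25 and 0.07 in the wild-type line. TIMM17A was called lower in the wild-type line by DESeq2 (adjusted p = 0.0187) and without its most abundant sgRNA (-0.36, adjusted p = 0.0344).

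All 5 genes of the PAM motor fell in both lines. DNAJC19, a J-protein that stimulates the motor's Hsp70, had 8.93 and 7.36 CPM in mutant day 9 libraries, against 38.0 and 39.2 CPM in mutant day 0 libraries, and 5.94 and 10.1 CPM in wild-type day 9 libraries, against 36.0 and 35.4 CPM in wild-type day 0 libraries. HSPA9, the Hsp70 itself, had 10.6 and 9.19 CPM in mutant day 9 libraries, against 37.7 and 35.6 CPM in mutant day 0 libraries. In the wild-type line HSPA9 had 9.10 and 11.6 CPM at day 9, against 39.2 and 35.8 CPM at day 0. Both genes were thus at about the same low level at day 9 in each line. DNAJC19 changed by -2.26 (SE 0.20, adjusted p = 4.19e-11) in the mutant line and by -2.15 (SE 0.20, adjusted p = 1.63e-10) in the wild-type line, and HSPA9 by -1.90 (SE 0.17, adjusted p = 1.06e-10) in the mutant line and by -1.86 (SE 0.17, adjusted p = 2.16e-10) in the wild-type line.

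TIMM44, which tethers HSPA9 to the TIM23 channel, changed by -0.91 in the mutant line and by -0.88 in the wild-type line. GRPEL1, the nucleotide exchange factor of HSPA9, changed by -0.76 in the mutant line and by -1.09 in the wild-type line. PAM16, which binds DNAJC19 and holds it at the channel, had 23.1 and 23.2 CPM in mutant day 9 libraries, against 37.9 and 38.2 CPM in mutant day 0 libraries, and 17.2 and 17.1 CPM in wild-type day 9 libraries, against 37.7 and 39.3 CPM in wild-type day 0 libraries. Its change was -0.72 (SE 0.14, adjusted p = 0.000226) in the mutant line and -1.16 (SE 0.14, adjusted p = 7.25e-08) in the wild-type line.

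In the matrix, PMPCB, the catalytic subunit of the peptidase that cleaves presequences, fell in both lines. It had 30.3 and 32.0 CPM in mutant day 9 libraries, against 56.6 and 54.0 CPM in mutant day 0 libraries, and 32.2 and 33.6 CPM in wild-type day 9 libraries, against 53.9 and 59.2 CPM in wild-type day 0 libraries. The change was -0.83 (SE 0.11, adjusted p = 7.85e-07) in the mutant line and -0.78 (SE 0.12, adjusted p = 2.67e-06) in the wild-type line. PMPCB also had 5 sgRNAs for a second promoter, outside the rule, which changed by -0.05 in the mutant and -0.08 in the wild-type line (SE 0.08 each) and were not called in a fit of the 1395 genes with such sgRNAs. PMPCA, the partner subunit that binds the substrate, had 50.3 and 47.7 CPM in mutant day 9 libraries, against 55.6 and 55.0 CPM in mutant day 0 libraries. PMPCA had, in the wild-type line, 44.2 and 51.2 CPM at day 9, against 55.5 and 58.7 CPM at day 0. Its day 9 libraries lay below its day 0 libraries in both lines, but neither change was called (-0.18 in the mutant and -0.26 in the wild-type line, SE 0.11 each). Only 1 PMPCA sgRNA was called lower, at -2.59 in the mutant and -3.28 in the wild-type line. The others ran from -0.22 to 0.37 in the mutant and from -0.31 to 1.03 in the wild-type line. All 5 lay within 1 kb of sgRNAs named for SDCCAG3, which was not called. Without its most abundant sgRNA, PMPCA was called lower in both lines, at -0.48 in the mutant (adjusted p = 0.0174) and -0.46 in the wild-type line (adjusted p = 0.0280). It was also called in the mutant line by limma (-0.46, adjusted p = 0.0227), and in the wild-type line by DESeq2 (adjusted p = 0.0426) and without replicate 2 of wild-type day 9 (adjusted p = 0.0414).

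The chaperonin genes HSPD1 and HSPE1, encoding Hsp60 and its lid Hsp10, were not called in either line by the main test. HSPD1 had 30.1 and 31.5 CPM in mutant day 9 libraries, against 34.4 and 32.3 CPM in mutant day 0 libraries, and 38.5 and 28.6 CPM in wild-type day 9 libraries, against 30.6 and 29.7 CPM in wild-type day 0 libraries. HSPE1 had 88.7 and 94.6 CPM in mutant day 9 libraries, against 99.8 and 106 CPM in mutant day 0 libraries, and 102 and 90.1 CPM in wild-type day 9 libraries, against 106 and 117 CPM in wild-type day 0 libraries. The change of HSPD1 was -0.11 in the mutant and 0.16 in the wild-type line (SE 0.14 each), and that of HSPE1 -0.16 in the mutant (adjusted p = 0.283) and -0.21 in the wild-type line (adjusted p = 0.110), with an SE of 0.08 each. HSPE1 was called lower in the wild-type line under 4 alternatives: scaling to control sgRNAs (adjusted p = 0.0452), DESeq2 (adjusted p = 0.0439), limma (-0.63, adjusted p = 0.0257) and without replicate 1 of wild-type day 9 (adjusted p = 0.0264). The 2 genes are transcribed away from each other from starts 105 bases apart on chromosome 2, and 4 of the 6 HSPE1 sgRNAs had counts identical to those listed under the readthrough gene HSPE1-MOB4. The HSPD1 window, at chr2:197500225-197500524 on the minus strand, is shown because 204 of its bases also lie in the HSPE1 window; capitals mark the NRF1 motif with its middle base free.
HSPD1: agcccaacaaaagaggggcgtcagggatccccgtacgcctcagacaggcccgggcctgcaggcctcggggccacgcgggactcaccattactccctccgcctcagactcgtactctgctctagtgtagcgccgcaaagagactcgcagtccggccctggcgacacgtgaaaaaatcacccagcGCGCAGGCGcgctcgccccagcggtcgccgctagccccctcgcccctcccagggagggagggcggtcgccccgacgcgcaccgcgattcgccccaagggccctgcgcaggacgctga

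Of the matrix proteases, LONP1 and CLPP fell in both lines. LONP1, an ATP-dependent protease of the matrix, had 13.1 and 7.49 CPM in mutant day 9 libraries, against 43.2 and 40.5 CPM in mutant day 0 libraries, and 8.69 and 8.86 CPM in wild-type day 9 libraries, against 44.3 and 42.3 CPM in wild-type day 0 libraries. Its change was -2.05 (SE 0.19, adjusted p = 8.49e-11) in the mutant line and -2.30 (SE 0.19, adjusted p = 1.03e-11) in the wild-type line, the lowest of the 40 genes in the wild-type line. CLPP, the proteolytic subunit of the ClpXP protease, changed far less: it had 67.7 and 64.8 CPM in mutant day 9 libraries, against 83.8 and 90.3 CPM in mutant day 0 libraries, and 71.7 and 66.4 CPM in wild-type day 9 libraries, against 85.6 and 85.8 CPM in wild-type day 0 libraries. The change of CLPP was -0.39 (SE 0.09, adjusted p = 0.0012) in the mutant line and -0.31 (SE 0.09, adjusted p = 0.0147) in the wild-type line. Its mutant call was lost without replicate 2 of mutant day 0 (adjusted p = 0.0783), and its wild-type call without replicate 2 of wild-type day 9 or without either wild-type day 0 library (adjusted p between 0.101 and 0.111). With limma neither call on CLPP held (adjusted p = 0.0931 in the mutant and 0.113 in the wild-type line), and without its most abundant sgRNA the wild-type call was lost (-0.23, adjusted p = 0.180). CLPX, the ATPase that feeds CLPP, was not called, at 0.03 in the mutant and -0.11 in the wild-type line (SE 0.10 each).

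TIMMDC1 carries a TIMM name but is known as an assembly factor of respiratory complex I. It had 30.6 and 28.6 CPM in mutant day 9 libraries, against 55.3 and 53.4 CPM in mutant day 0 libraries, and 34.6 and 31.8 CPM in wild-type day 9 libraries, against 64.7 and 56.6 CPM in wild-type day 0 libraries. The change was -0.88 (SE 0.12, adjusted p = 3.45e-07) in the mutant line and -0.87 (SE 0.12, adjusted p = 4.60e-07) in the wild-type line.

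Single sgRNAs of a gene differed widely. Tested one by one with the same model over 87897 sgRNAs, 59 of the 204 were lower and 0 higher in the mutant line (5.77% and 0.23% of all sgRNAs), and 61 were lower and 1 higher in the wild-type line (5.92% and 0.348% of all sgRNAs). Of these, 54 were lower in both lines, 5 in the mutant line alone and 7 in the wild-type line alone. No sgRNA was called for the difference between the lines (0 lower or higher, 0% of all sgRNAs). An unadjusted p under 0.05 for the difference was found for 7 of the 204, against 4529 of all 87897 sgRNAs. Of the 96 sgRNAs of the 19 genes called in the mutant line, 51 were lower in both lines. The range between the lowest and highest sgRNA of a gene in the mutant line had a median of 3.25 log2 units among those 19 genes and of 0.66 among the other 21. HSPA9 was the gene with all 5 sgRNAs called in both lines, with changes from -4.59 to -1.13 in the mutant line and from -4.02 to -1.04 in the wild-type line. Only 2 of the 5 TIMM13 sgRNAs were called in each line, and none of the 5 CLPP sgRNAs was called in either.

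The remaining 3 sgRNAs lower in both lines belonged to HSPE1, MTX1 and PMPCA, 1 each, genes whose summed counts were not called. The HSPE1 sgRNA had 2.62 and 1.68 CPM in mutant day 9 libraries, against 12.0 and 13.9 CPM in mutant day 0 libraries, and 1.73 and 1.06 CPM in wild-type day 9 libraries, against 11.1 and 12.1 CPM in wild-type day 0 libraries. It is one of the 4 listed under HSPE1-MOB4 too. The MTX1 sgRNA had 0.0936 and 0.262 CPM in mutant day 9 libraries, against 3.63 and 3.37 CPM in mutant day 0 libraries, and 0.0775 and 0.124 CPM in wild-type day 9 libraries, against 1.94 and 3.35 CPM in wild-type day 0 libraries. The PMPCA sgRNA had 2.00 and 1.80 CPM in mutant day 9 libraries, against 11.5 and 11.3 CPM in mutant day 0 libraries, and 1.37 and 1.75 CPM in wild-type day 9 libraries, against 12.0 and 18.5 CPM in wild-type day 0 libraries. In each of the 3 the days stood well apart in both lines, while the other sgRNAs of the gene carried most of its counts. Another PMPCA sgRNA was the 1 called higher, in the wild-type line (1.03), against -0.22 in the mutant line.

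**Figure D3:**
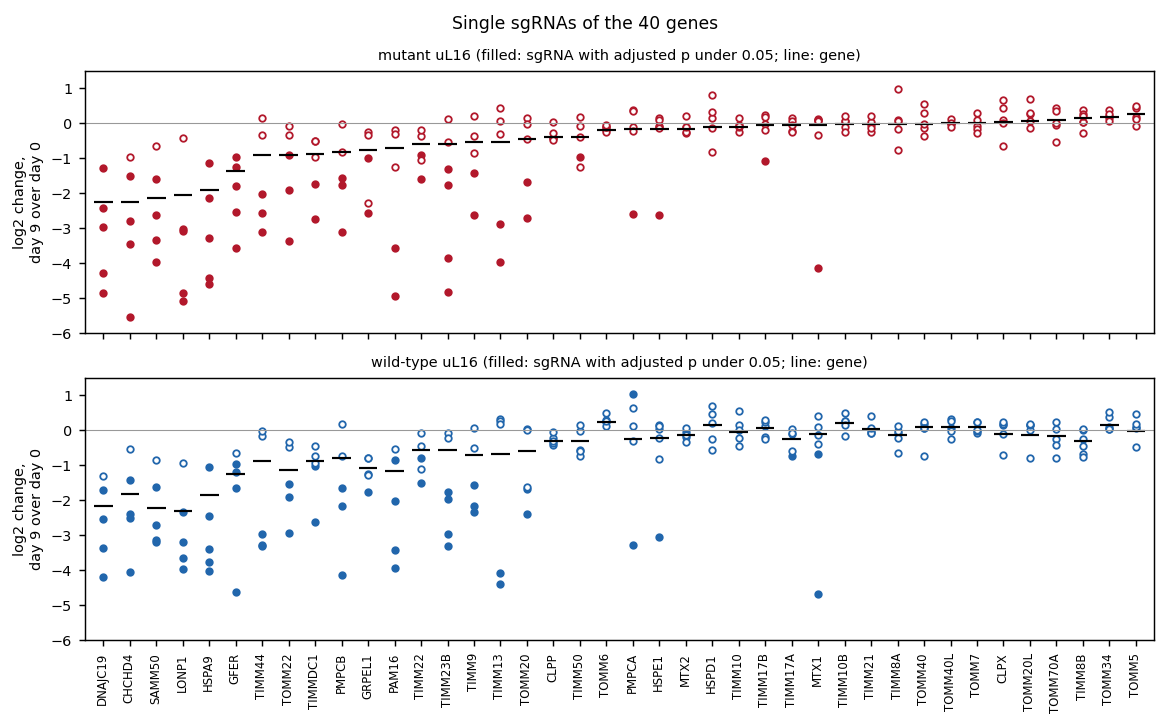
Log2 change, day 9 over day 0, of each of the 204 sgRNAs (points, filled where the adjusted p is under 0.05) and of the summed counts of each gene (lines), with the line expressing mutant uL16 above and the line expressing wild-type uL16 below, genes ordered by their change in the mutant line. The 3 isolated low points among genes near 0 are the sgRNAs of PMPCA, HSPE1 and MTX1.

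The lines were then compared with each other. The difference of the changes, mutant minus wild-type, was called for none of the 40 genes by edgeR (0.0171% of all genes lower, 0% higher). An unadjusted p under 0.05 by edgeR was found for 4 of the 40, against 997 of all 17547 genes. DESeq2 called 1 lower, TOMM6, against 29 of all genes. The median difference was -0.01 over the 40 genes and -0.002 over all genes. Below 0 lay 22 of the 40, against 50.4% of all genes. Across the 40 genes the changes in the mutant and wild-type lines correlated at 0.960 (Pearson) and 0.848 (Spearman), against 0.902 and 0.450 over all genes; this describes genes measured in the same 8 libraries, which are not independent replicates. Among the genes that fell, the differences furthest from 0 were 0.45 for PAM16 (SE 0.20, unadjusted p = 0.0305, adjusted p = 0.865) and -0.44 for CHCHD4 (SE 0.22, unadjusted p = 0.0507, adjusted p = 0.879). A p above the threshold does not show that the lines respond alike: with SEs of this size, differences about as large as 0.45 log2 units were not detectable for these genes.

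**Figure D4:**
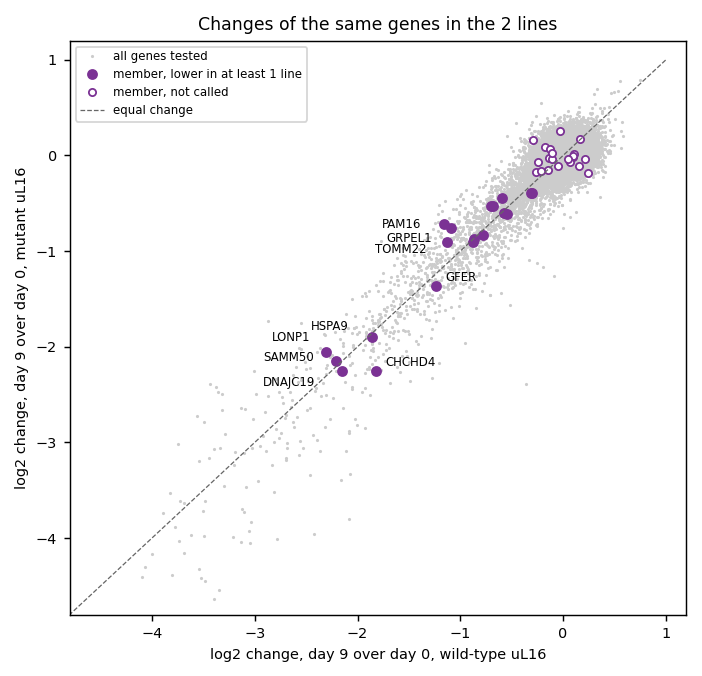
Log2 change, day 9 over day 0, in the line expressing mutant uL16 (vertical axis) against that in the line expressing wild-type uL16 (horizontal axis) for all 17547 genes tested (grey) and the 40 genes (purple, filled where called in at least 1 line). The 40 genes lie along the line of equal change, with CHCHD4 furthest below it and PAM16 furthest above it among the filled points.

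TOMM6, a small subunit that stabilises the TOM complex, had the smallest p for the difference. It had 69.0 and 67.8 CPM in mutant day 9 libraries, against 78.9 and 76.8 CPM in mutant day 0 libraries, and 91.6 and 80.4 CPM in wild-type day 9 libraries, against 73.8 and 71.5 CPM in wild-type day 0 libraries. The change was -0.19 in the mutant and 0.24 in the wild-type line (SE 0.09 each), a difference of -0.43 (SE 0.13, unadjusted p = 0.00168, adjusted p = 0.669). The wild-type change of TOMM6 was called higher by DESeq2 (adjusted p = 0.0135), and was 0.33 without replicate 2 of wild-type day 9. DESeq2 called more of the 17547 genes than edgeR: in the wild-type line 696 were higher, against 173. For the difference DESeq2 called 29 lower and 18 higher, against 3 and 0 by edgeR. All 5 TOMM6 sgRNAs were lower at day 9 in the mutant line and higher in the wild-type line. Their counts make up the summed counts of the same libraries, so this is not a separate test. None of them was called for the difference. DESeq2 gave the difference an adjusted p of 0.0387, and over all alternatives the adjusted p ran from 0.0387 to 1.00.

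TIMM8B, a small TIM chaperone, showed the opposite signs. It had 59.2 and 65.2 CPM in mutant day 9 libraries, against 53.2 and 58.3 CPM in mutant day 0 libraries, and 51.0 and 45.3 CPM in wild-type day 9 libraries, against 57.4 and 61.0 CPM in wild-type day 0 libraries. The difference was 0.46 (SE 0.15, unadjusted p = 0.00424, adjusted p = 0.822). Its 6 sgRNAs lie within 1 kb of sgRNAs for SDHD, a subunit of respiratory complex II, and 1 of them has the same counts under both names; SDHD changed by -0.03 in the mutant and -0.25 in the wild-type line and was not called. TOMM70A had 79.8 and 74.2 CPM in mutant day 9 libraries, against 71.1 and 73.0 CPM in mutant day 0 libraries, and 60.1 and 65.4 CPM in wild-type day 9 libraries, against 74.1 and 67.5 CPM in wild-type day 0 libraries. Its difference was 0.27 (SE 0.13, unadjusted p = 0.0483, adjusted p = 0.874).

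Neighbouring genes could share the silencing. For 13 of the 40 genes at least 1 sgRNA lay within 1 kb of an sgRNA of another gene or had counts identical to those of one; the identical counts concerned 13 sgRNAs of HSPE1, MTX1, TIMM23B, TIMM8B and TOMM70A. Apart from TIMM23, whose counts are those of TIMM23B, the neighbour called was PQBP1 beside TIMM17B, at -0.34 in each line, while TIMM17B was not called. Other neighbours with sgRNAs within 1 kb of those of members that fell, TMEM43 for CHCHD4, CATSPERD for LONP1 and KIAA0586 for TIMM9, were not called. The annotated starts also put PARG 26 bases from TIMM23B and TOMM22-DT 101 bases from TOMM22, each on the opposite strand. Changes of PARG and TOMM22-DT are not given here.

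Beyond the 40 genes, a list of 40 further genes of mitochondrial protein handling was measured: presequence processing, quality control proteases, cochaperones, insertases and cristae organisation. In the mutant line 11 of the 40 fell (9.07% of all genes) and none rose (0.798%). In the wild-type line 13 fell (9.28% of all genes) and none rose (0.986%). The median log2 change of this list was near 0, at -0.08 in the mutant and -0.07 in the wild-type line. By edgeR none was called for the difference (0.0171% of all genes lower, 0% higher). An unadjusted p under 0.05 for the difference was found for 3 of the 40, against 997 of all 17547 genes. DNAJA3, a J-protein of the matrix, changed by -1.84 in the mutant and -1.51 in the wild-type line. The prohibitins PHB and PHB2, ring-forming scaffolds of the inner membrane, changed most: PHB by -3.10 in the mutant and -2.11 in the wild-type line, and PHB2 by -2.64 and -3.13. MIPEP, a second presequence peptidase, changed by -1.15 in the mutant and -1.41 in the wild-type line, and MINOS1, a subunit of the cristae-organising MICOS complex, by -0.74 and -1.15. The smallest p for the difference were those of MINOS1 (0.40, unadjusted p = 0.00171), PHB (-0.98, unadjusted p = 0.0151), DNLZ (-0.31, unadjusted p = 0.0393) and ROMO1 (0.31, unadjusted p = 0.0542), none under 0.05 after adjustment.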

How the data were processed

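Reads from 8 libraries were deposited by the authors as a table of raw counts per sgRNA, with no normalization; per the file headers, bases 1 to 39 of each read were matched to the human CRISPRi version 2 library. The submitters' processing notes name hg38; no source used here names a counting program. The sgRNA positions were used only for distances within the table. An sgRNA needed a mean count of 20 over the 8 libraries and a P1 or P1P2 set, and a gene at least 3 sgRNAs. Counts were summed per gene, scaled by TMM and tested in R 4.3.3 with edgeR 4.0.16 (quasi-likelihood, 1 mean per group, 4 residual degrees of freedom); the analysis was tested on simulated data. The labels' protocols describe no molecular identifiers, so depth speaks to counting error alone. Promoter windows and current symbols came from RefSeq.

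The members, role groups and pathway list were chosen with earlier results of these data known. Counts per library were printed for the 2 members with the smallest p of each role group and the 4 with the smallest p for the difference; TOMM40 and 3 single sgRNAs were added after their values were seen. Deviations of same-numbered replicates were nearly uncorrelated (-0.007 to 0.0449), highest between the days of the mutant line (0.0449) and of the wild-type line (0.0170). These deviations include counting error, so they cannot settle whether the numbers pair the libraries. The main fit treated the libraries as unpaired. Alternatives were DESeq2 1.42.0, limma 3.58.1 and other filters, scalings and sgRNA sets.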

Additional observations from a re-analysis of the deposited data

Results flagged for a closer look

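TOMM6, TIMM8B and TOMM70A drew attention because both libraries of one line moved one way from day 0 to day 9 and both libraries of the other line moved the opposite way. The difference of the log2 changes, mutant minus wild-type, was -0.43 for TOMM6, 0.46 for TIMM8B and 0.27 for TOMM70A. The difference itself was tested, and none of the 3 passed an adjusted p under 0.05 by edgeR. How many of all genes tested moved in opposite ways like this was not counted, so the pattern cannot be called unusual.

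TIMM23, whose sgRNAs are in a transcript-named set outside the main comparison, showed a signal in a fit over 18903 genes that was added after seeing the data. It had 53.7 and 58.8 CPM in mutant day 9 libraries, against 89.8 and 90.4 CPM in mutant day 0 libraries, and 59.2 and 60.9 CPM in wild-type day 9 libraries, against 95.7 and 93.4 CPM in wild-type day 0 libraries. Its log2 change was -0.68 in the mutant line (SE 0.08, edgeR adjusted p = 1.33e-07) and -0.65 in the wild-type line (SE 0.08, adjusted p = 2.99e-07). These values rest largely on the counts also listed under TIMM23B. With 2 libraries per group, no test for a single outlying library was made.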

How the results depend on the processing

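Over all alternatives, 15 to 20 members were called lower in the mutant line and 14 to 23 in the wild-type line. Both ranges lay within 1.5 times of 19 and 18, the counts of the main fit. The count over all genes moved as well. DESeq2, which gave the 23, called 2017 of all 17547 genes lower in the wild-type line, against 1629 in the main fit. In the mutant line the 20 came with limma (1861 of all genes) and without the most abundant sgRNA (1614). The main fit called 1591 there. The lowest counts came without sgRNAs shared with or near another gene (15 and 14), where members left with under 3 sgRNAs were not tested, and without replicate 2 of mutant day 0 (15). No member changed direction among those called. Without sgRNAs shared with or near another gene, CHCHD4, LONP1, TIMM23B and TIMM9, all lower in the main fit, were not tested. No member tested in that setting changed its call. Of the 15298 genes tested there, 1206 were called lower in the mutant and 1256 in the wild-type line. In the mutant line 15 members, and in the wild-type line 16, stayed under an adjusted p of 0.05 in every alternative that tested them. In the wild-type line 1 member, TOMM6, was called higher by DESeq2, and the count ran from 0 to 1 when single libraries were left out (1, TOMM6, without replicate 2 of wild-type day 9). For the difference between the lines, DESeq2 called 1 member lower (TOMM6), against 29 of all 17547 genes. In the wild-type line DESeq2 called 696 of all genes higher. The median change of the members in the mutant line was -0.217 when scaled to control sgRNAs, -0.464 with limma on mean log2 CPM of sgRNAs, -0.350 without the most abundant sgRNA, -0.399 without sgRNAs shared with or near another gene, and from -0.260 to -0.180 when single libraries were left out. In the wild-type line it was -0.374 with limma and -0.345 without the most abundant sgRNA. The median difference was 0.0122 without the most abundant sgRNA, -0.00324 with all promoters pooled, and from -0.0128 to 0.0551 when single libraries were left out; it stayed near 0. With the replicate block within each line, 19 members were called lower in the mutant line, 18 in the wild-type line and 0 for the difference, so it changed no count. Where leaving out a library left a group with 1, that library was assumed to vary like the other groups. The cause of these shifts was not tested, except that fewer members entered the fit without shared sgRNAs. The smallest library held 39233340 counts; what depth limits was not tested.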
